A study of Jaculus jaculus with 13 samples.

Results

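In the kidney of the male Lesser Egyptian Jerboa (Jaculus jaculus, a small desert rodent), 26 of the 24433 genes in the count table met a rule for a lower level in dehydration than in both control and rehydration. The genes were chosen by these measured values: an average of 20 counts or more over the animals, no overlap of the dehydrated animals with any other animal in CPM (the count of a gene divided by the sum of the animal's counts, times 1000000), and a mean CPM in dehydration of at most 0.77 times the mean of each other group. Genes that the study names by symbol were left out, which removed 1 gene, SMAD7. Because the dehydration values selected the genes, the differences of dehydration from control and from rehydration are given here as a description, and calls made in these contrasts were shaped by the selection. The rule does not compare rehydration with control, so this difference was tested. It still uses the values of both groups and limits which genes could enter, as given beside that test. The members are whole genes of 1 bulk tissue, so fewer cells of a type and less RNA per cell cannot be told apart.

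Wild caught adult males were housed singly with dry food throughout, which all 3 groups shared, and RNA of the whole left kidney was sequenced after poly-A selection. The control animals (CM, n = 4) drank freely. The dehydrated animals (DHM, n = 4) had no water for 11 days according to the labels, and the rehydrated animals (RHM, n = 5) had none for 7 days and then free water for 3 days. The methods of the study give another length for the dehydration and for the return of water, so these durations are not settled here. The study reports lower RNA integrity values in the rehydrated animals than in the other groups. From the clustering of the samples it proposes that this is not a main driver of the group differences. The part of RNA integrity in the comparisons of rehydration given here was not tested.

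The mammalian kidney saves water by building a concentration gradient along the medulla and by moving aquaporin water channels into the membrane of collecting duct cells under vasopressin. In desert rodents this work is marked, since their water comes largely from food and metabolism. The levels of AQP1 and AQP2, aquaporins with a known identifier, showed that the libraries hold kidney RNA. AQP1, the channel of the proximal tubule and thin descending limb, lay between 327 and 1069 CPM over the 13 animals, and AQP2, the vasopressin-regulated channel of the collecting duct, between 98.7 and 797 CPM. AQP4, another collecting duct channel, was low throughout, between 0.0962 and 0.939 CPM.

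Total counts ran from 14071802 to 22949762 per animal, so that 3 counts, taken as the floor of detection, were worth 0.131 to 0.213 CPM. Animals CM01 and RHM01 stood apart from their groups in 254 genes that the study assigned to immune terms on these same samples. Their summed level was 17608 CPM in CM01 and 13169 CPM in RHM01, against 2090 to 6333 CPM in the other 11 animals. None of the 26 genes belongs to that list. The files do not pair any of the 26 identifiers with a symbol, so the genes are given by scaffold, start and end on the JacJac1.0 assembly, with their annotated exons, and nothing is said of their function.

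Fewer genes met the rule for a fall in dehydration than its mirror image for a rise. Of the 13828 genes that reached the count minimum, 47 had every dehydrated animal under every other animal, which is 0.34% of them, and 153 had every dehydrated animal above every other, which is 1.11%. With the ratio limit as well, 27 genes were lower (26 after SMAD7 was set aside), and 94 were higher under the mirrored limit. With TMM-scaled CPM, added after seeing the data, these counts were 37 and 79, and with DESeq2 size factors they were 41 and 72. The counts without the ratio limit, 47 and 153 in CPM, were 63 and 115 with TMM-scaled CPM. With DESeq2 size factors they were 81 and 96, so the size of this imbalance depended on the scaling. The 26 genes lay on 24 sequences of the assembly, 22 of which held a single member. In 2 genes the mean in dehydration was under 0.1 times the lower of the other group means, in 6 it was from 0.1 to 0.5 times, in 12 from 0.5 to 0.7 times, and in 6 above 0.7 times. Measured levels ranged from a mean of 1.29 to 2237 CPM over all animals.

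**Figure D1:**
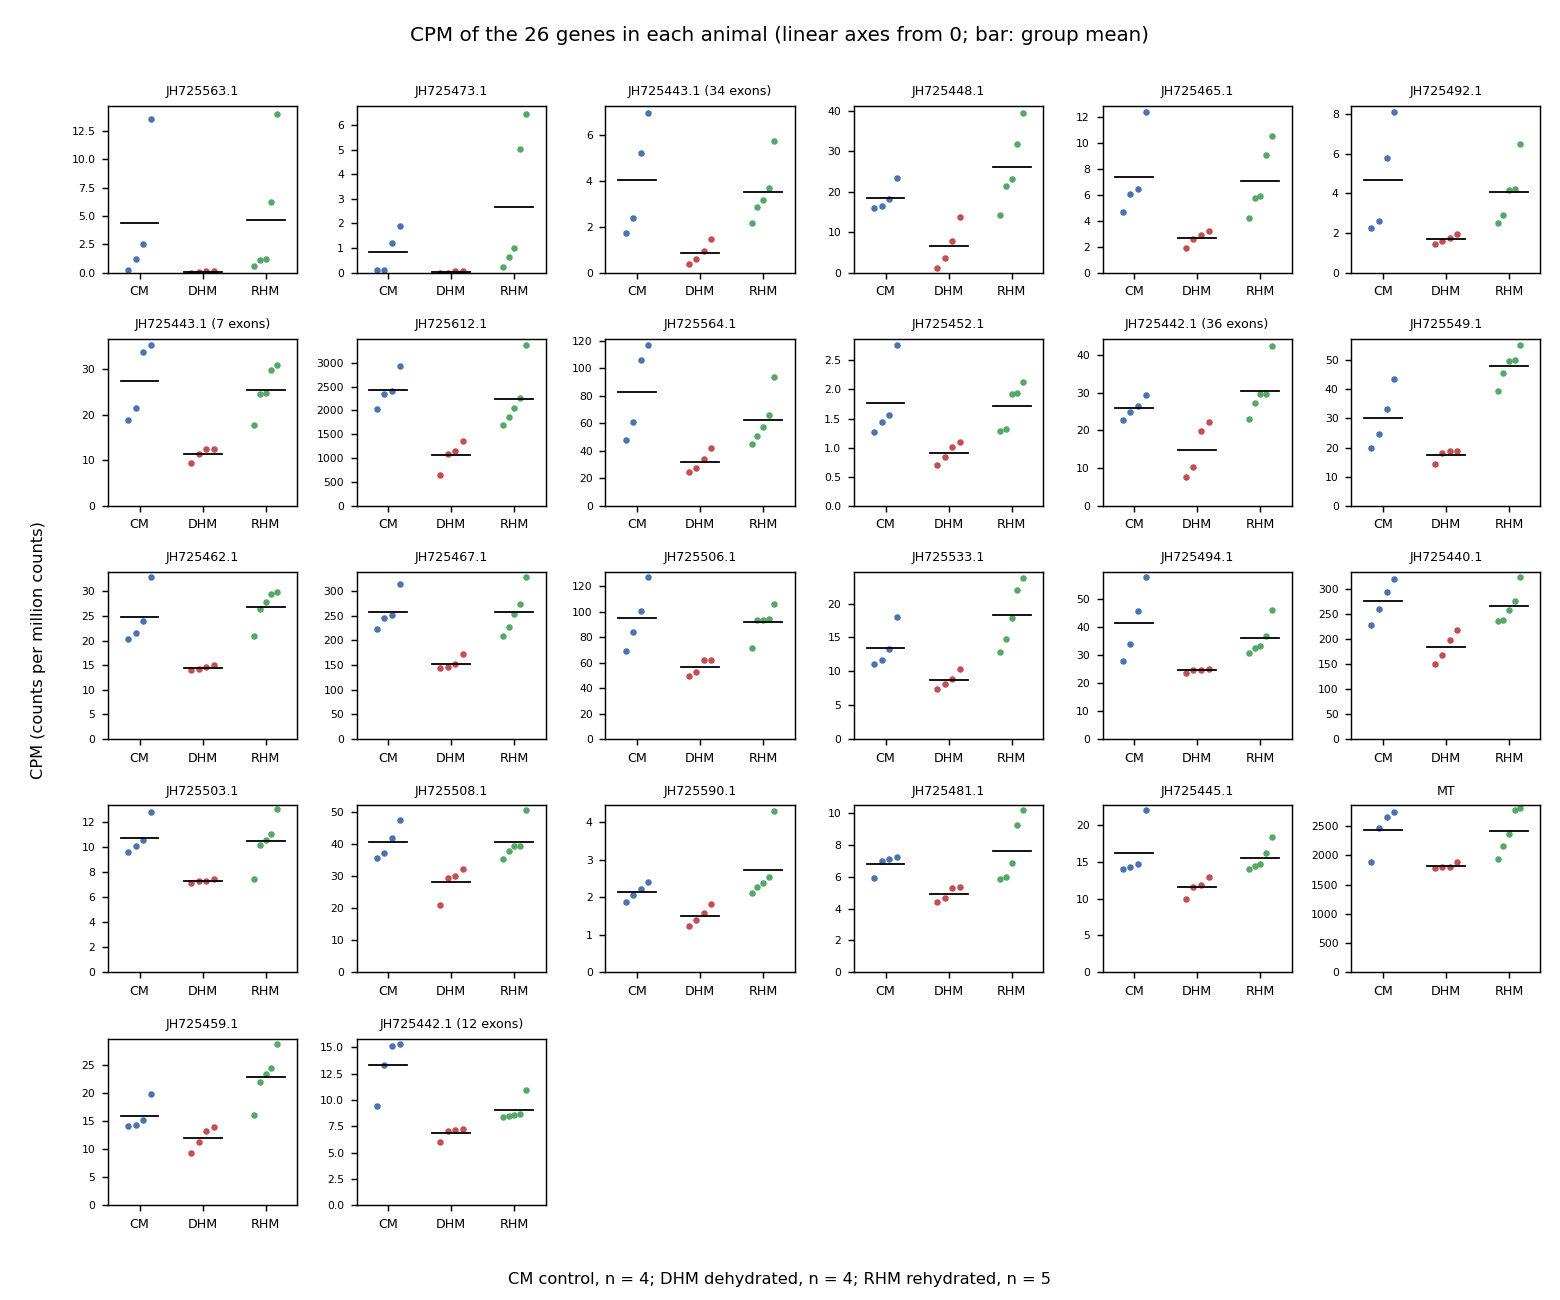
CPM of each of the 26 genes (linear vertical axes starting at 0) in 4 control (CM), 4 dehydrated (DHM) and 5 rehydrated (RHM) animals, in order of the ratio that selected them. Points are animals and bars are group means; the dehydrated points lie under all others in each panel by construction, while control and rehydrated points overlap in all 26.

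The gene of 36 exons at JH725563.1:859194-917084 (minus strand, 4356 exon bases) had the lowest ratio. Its counts were 299, 5, 53 and 23 in the controls CM01, CM03, CM04 and CM06, then 2, 2, 0 and 1 in the dehydrated animals DHM02, DHM03, DHM05 and DHM06. In the rehydrated animals RHM01, RHM02, RHM04, RHM07 and RHM08 they were 19, 22, 253, 8 and 109. All dehydrated animals were thus under the floor of 3 counts, and the other groups spread widely above it. Summed over animals, the gene took a 68.4 times larger share of the counts in control than in dehydration (exact 95% interval 29.0 to 212) and 74.3 times larger in rehydration (31.6 to 230). The gene was selected on these same counts, so the ratios and intervals are a description and no evidence of a fall. These intervals cover counting error only and leave out the spread between animals, which was large: the control mean was 4.37 ± 6.20 CPM (SD, n = 4). Single animals carried much of both ratios: without CM01 the control ratio was 19.6, and without RHM04 the rehydration ratio was 36.2.

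The gene of 4 exons at JH725473.1:972390-980951 (plus strand, 466 exon bases) was close to the floor in more than 1 group. Counts were 42, 2, 25 and 2 in the controls, 0, 0, 1 and 1 in the dehydrated animals, and 4, 19, 91, 9 and 113 in the rehydrated animals, in the same animal order. The separation of CM03 and CM06 from the dehydrated animals therefore rests on single reads. The summed share was 31.9 times that in dehydration for the controls (exact 95% interval 8.52 to 269) and 107 times for the rehydrated animals (29.2 to 886). These values too come from the counts that selected the gene and are a description only. Leaving out 1 animal at a time gave 17.6 (without CM01) to 47.96 (without DHM05) for the controls and 69.9 (without RHM08) to 160.2 (without DHM05) for the rehydrated animals. Both of these low genes were high in the same animals, CM01 and CM04 among the controls and RHM04 and RHM08 among the rehydrated.

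Next in order were 4 genes with a ratio between 0.2 and 0.42. The gene of 34 exons at JH725443.1:1654520-1668204 (plus strand) measured 2.36, 5.19, 6.93 and 1.72 CPM in the controls, 0.375, 0.936, 1.46 and 0.602 CPM in the dehydrated animals, and 2.14, 3.17, 3.66, 2.84 and 5.72 CPM in the rehydrated animals. Its highest dehydrated animal, DHM05, came within 1.18 times of the lowest control. The gene of 2 exons at JH725492.1:6546454-6559183 (minus strand) averaged 4.69 ± 2.77 CPM in control, 1.69 ± 0.204 in dehydration and 4.06 ± 1.55 in rehydration (SD). The dehydrated animals of this gene were close together, whereas the controls formed a lower pair and a higher pair.

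The gene of 9 exons at JH725448.1:7548609-7572247 (plus strand) varied most within dehydration in absolute terms among these 4. It had 13.6, 1.14, 7.82 and 3.61 CPM in the dehydrated animals, 16.5, 18.2, 23.2 and 15.9 CPM in the controls and 31.7, 39.3, 21.4, 14.3 and 23.1 CPM in the rehydrated animals. The top dehydrated animal, DHM02, and the bottom rehydrated animal, RHM07, were nearly level, with a gap of 1.05 times. The next gene to its right, 2337 bases away on the same strand, had a mean CPM in dehydration that was 0.444 times that in control and 0.207 times that in rehydration, with DHM02 again high at 1.82 CPM against 0.0501 to 0.313 CPM in the other dehydrated animals. That neighbour was not a member because DHM02 overlapped the controls.

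The member at JH725465.1:9287137-9298214 (minus strand, 9 exons) lies in a run of similar genes. Its CPM was 6.44, 12.3, 6.06 and 4.65 in control, 2.90, 3.22, 1.93 and 2.61 in dehydration, and 5.88, 10.5, 9.09, 5.76 and 4.17 in rehydration. Within 500000 bases, 3 further genes on the same strand shared at least 5 exon lengths with it, and each had 7 lengths in common with it. All 3 were also lower in dehydration: their mean CPM in dehydration was 0.463, 0.345 and 0.405 times that in control, and 0.544, 0.489 and 0.460 times that in rehydration. In each of the 3, at least 1 dehydrated animal overlapped another group, so none met the rule. The gene to the right of the member overlaps it and shares 190 exon bases with it. Reads of near-identical gene copies cannot be assigned to 1 copy. The sequence identity of these genes was not examined, so the level of each single gene in this run is uncertain.

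**Figure D2:**
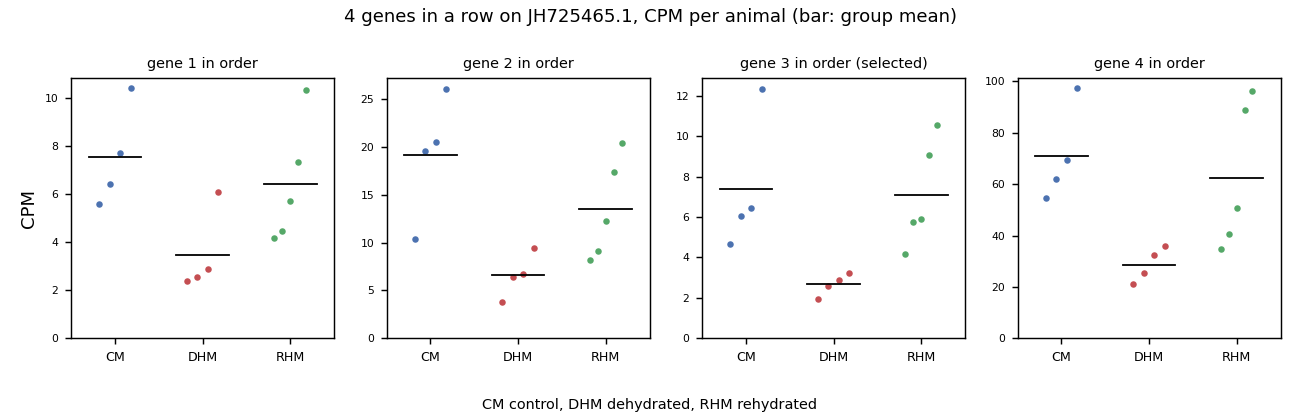
CPM (linear axes from 0) of 4 genes in a row on the minus strand of JH725465.1, from left to right along the scaffold, in control (CM, n = 4), dehydrated (DHM, n = 4) and rehydrated (RHM, n = 5) animals. Points are animals and bars are group means; the selected gene is the third, and the dehydrated mean is the lowest of the 3 group means in all 4 genes.

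Among the 6 genes with the most counts, the gene at JH725612.1:745805-793305 (ENSJJAG00000012217, minus strand, 14 exons, 1539 exon bases) had the lowest ratio of the dehydration mean to the lower of the other group means, 0.473. Its CPM was 2022, 2340.5, 2400 and 2925 in the controls, 1363, 1159, 1091 and 636 in the dehydrated animals, and 1686, 2264, 3363, 2046 and 1860 in the rehydrated animals. The group means were 2422 ± 374, 1062 ± 307 and 2244 ± 662 CPM (SD), so that control was 2.28 times and rehydration 2.11 times dehydration. The lowest other animal, RHM01, stood 1.24 times above the highest dehydrated animal, DHM02. Per kilobase of annotated exon, this gene averaged 1257 CPM over all animals, the highest of the members outside the mitochondrial sequence.

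A pair of genes near 200 CPM had narrow dehydrated groups or narrow margins. The gene at JH725467.1:19614302-19619063 (minus strand, 5 exons) measured 246, 222, 252 and 314 CPM in control, 152, 146, 143 and 172 CPM in dehydration, and 254, 273, 227, 329 and 210 CPM in rehydration. Control and rehydration means were nearly the same, and the dehydration mean was 0.592 times each of them. The gene at JH725440.1:7611967-7625274 (minus strand, 9 exons) had means of 275 ± 40.3, 184 ± 30.4 and 266 ± 36.1 CPM (SD). Its gap was small, with CM06 only 1.04 times above DHM02.

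The gene at JH725506.1:2830597-2833797 (plus strand, 5 exons) and the gene at JH725564.1:5023353-5032586 (plus strand, 22 exons) complete the abundant members. The latter was further below control than the JH725612.1 gene, with a dehydration mean 0.384 times that of control against 0.439 times. The first measured 84.2, 69.1, 127 and 101 CPM in control, 52.8, 49.6, 62.5 and 61.9 CPM in dehydration, and 106, 93.3, 94.2, 71.6 and 93.9 CPM in rehydration. The second measured 48.2, 61.2, 117 and 106 CPM in control, 24.2, 41.9, 27.7 and 33.7 CPM in dehydration, and 50.7, 45.1, 93.5, 65.7 and 57.2 CPM in rehydration. In both genes the controls CM04 and CM06 were the highest of their group. The 22-exon gene shares 1668 of its 4550 exon bases with another annotated gene of the same strand, which averaged 0.846 counts, and reads in shared exons may have been set aside as ambiguous.

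The mitochondrial member is a gene of 297 bases at positions 9904 to 10200 of the mitochondrial sequence, overlapping the next gene by 7 bases. Mitochondrial genes encode subunits of the respiratory chain and the ribosomal and transfer RNAs that translate them. CPM was 1894, 2659, 2467 and 2739 in control, 1811, 1794, 1887 and 1779 in dehydration, and 2775, 1943, 2374, 2156 and 2806 in rehydration. DHM05 and CM01 differed by 1.004 times, the smallest gap of the 26 genes. Of the 15 mitochondrial genes of at least 200 bases, this gene and 1 other had every dehydrated animal lower, and 14 had a dehydration mean under both other means. Over all 15, the median ratio of the dehydration mean to the lower of the other means was 0.95.

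Against the mitochondrial counts alone, the mean of the same gene was not higher in rehydration than in dehydration. It took 2.16 ± 0.169% (SD, n = 4) of the counts on the mitochondrial sequence in control, 1.80 ± 0.0789% (n = 4) in dehydration and 1.72 ± 0.172% (n = 5) in rehydration. The rehydrated animals, at 1.48% to 1.94%, spanned the dehydrated range of 1.73% to 1.91%, and all controls were at 1.97% or more. The share of all counts on the mitochondrial sequence moved at the same time, from a median of 11.4% in control to 10.2% in dehydration and 13.1% in rehydration. The part of that shift in the CPM of the member was not tested.

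**Figure D3:**
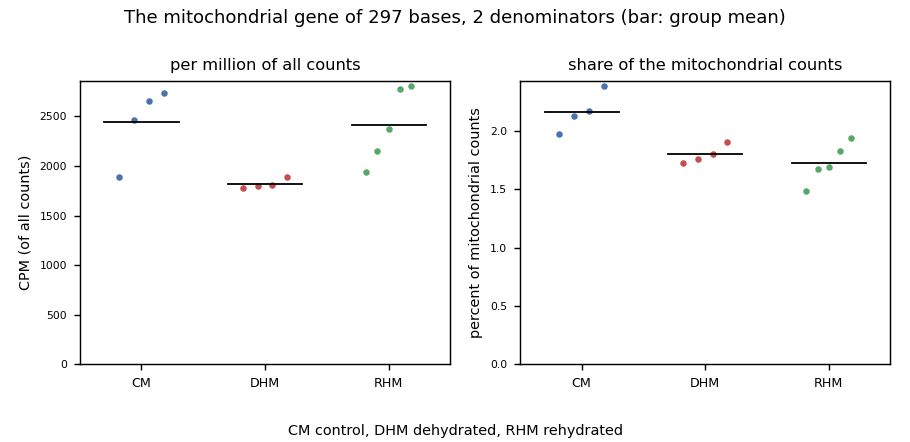
The mitochondrial gene of 297 bases as CPM, its share of all counts (left), and as a percentage of the counts on the mitochondrial sequence (right), both axes from 0, in control (CM, n = 4), dehydrated (DHM, n = 4) and rehydrated (RHM, n = 5) animals. Points are animals and bars are means; on the left the dehydrated animals are lowest, while on the right the rehydrated animals (1.48% to 1.94%) overlap the dehydrated ones.

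The 4 genes left among those with the lowest ratios were of medium or low level. The gene of 7 exons at JH725443.1:16534349-16667136 (minus strand) had the clearest gap after the lowest 2 genes: the dehydrated animals lay between 9.33 and 12.6 CPM, the controls between 18.9 and 35.4 CPM and the rehydrated animals between 17.7 and 30.9 CPM, a gap of 1.41 times. The gene of 8 exons at JH725452.1:5317113-5342926 (plus strand) was low throughout, at 0.702 to 1.09 CPM in dehydration, 1.26 to 2.77 CPM in control and 1.29 to 2.13 CPM in rehydration. The long gene of 36 exons at JH725442.1:48185172-48673304 (plus strand) split its dehydrated animals, with DHM02 and DHM03 at 22.2 and 19.7 CPM and DHM05 and DHM06 at 7.51 and 10.2 CPM. Its controls lay between 22.7 and 29.3 CPM, so DHM02 was just under the lowest of them.

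The gene of 4 exons at JH725549.1:5044539-5045634 (plus strand) had a log2 difference between rehydration and control of 0.66 in the edgeR fit of all 13 animals. This was the largest in that fit among members above 10 CPM on average. Its CPM was 33.2, 20, 43.4 and 24.6 in control, 14.48, 18.93, 18.98 and 18.10 in dehydration, and 55.3, 39.6, 50.2, 49.8 and 45.6 in rehydration. The rehydrated animals overlapped the controls only through CM04, whose value lay above that of RHM02. Without RHM01 the log2 difference of this gene was 0.60, under that of the JH725459.1 gene (0.63).

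The other 8 genes, of the 26, outside the naming rule had ratios from 0.586 to 0.742 and mean levels from 2.17 to 36.7 CPM. Of these, the gene of 4 exons at JH725462.1:4342702-4353242, described after its values were seen, combined a tight dehydrated group with a wide gap. It measured 14.96, 14.10, 14.70 and 14.19 CPM in dehydration against 20.4 to 33.0 CPM in control and 20.98 to 29.93 CPM in rehydration. The gene at JH725503.1:306227-313904, also described after its values were seen, had the least spread of these 8 in dehydration, at 7.13 to 7.42 CPM, but RHM08 lay just above it at 7.49 CPM.

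The limit of 0.77 fell within a continuous series of ratios. The 3 members closest to it had ratios of 0.754 (the mitochondrial gene), 0.756 (JH725459.1:3354749-3365898) and 0.762 (JH725442.1:5533030-5637891). The 3 genes just outside, which met the rest of the rule, had ratios of 0.771, 0.774 and 0.789. SMAD7, the inhibitory SMAD that dampens TGF-beta receptor signalling, was left out by name and measured 24.9 ± 3.89 CPM in control, 16.0 ± 0.787 in dehydration and 24.1 ± 2.30 in rehydration (SD), a ratio of 0.664.

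Across the 26 genes, the fitted log2 difference of dehydration from control ran from -5.95 to -0.45 with a median of -0.82, and that of rehydration from dehydration from 0.42 to 6.42 with a median of 0.96. Over all 15064 genes tested, these medians were 0.00439 and -0.00417. edgeR's quasi-likelihood test called 1 of the 26 genes lower in dehydration at an adjusted p under 0.01, where 0.166% of all genes were called lower. It called 10 of the 26 higher in rehydration compared to dehydration, where 2.68% of all genes were called higher. DESeq2, the tool of the study, called 17 and 22 of them, against 3.82% and 8.81% of all genes. The genes were selected on these contrasts, so nothing is read from these counts.

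Rehydration compared to control sets animals given water again after 7 days without it beside animals that drank freely in captivity. The dehydrated animals were without water for 11 days by the labels, and no group was sampled after 7 days alone. Whether these genes had fallen in the rehydrated animals before water returned therefore cannot be told. The control and rehydrated animals overlapped in all 26 genes, and in 36.2% of the 13828 genes they did not overlap. That share also counts genes that could not be members, so the overlap is not read as a trait of the 26. The median log2 difference of the 26 genes was -0.04, with 16 lower and 10 higher. In 17 of them the difference was under 1 standard error, for which no share over all genes was computed. edgeR's test called 1 of the 26, lower in rehydration, against 28.8% of all genes tested. Genes whose dehydrated level lies between the other levels could not be members, and 3986 of the 4331 genes called in this comparison (92.0%) were of that kind. Among the 2169 genes of sufficient count whose dehydration mean was under both other means, 3.87% were called, and among the 452 that also met the ratio limit, overlapping or not, 2.43%. The 1 of 26 is near these shares, so the small number of calls is not particular to the 26 genes. A gene that missed the threshold is also not shown to be at the control level. The median standard error was 0.20 on the log2 scale.

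**Figure D4:**
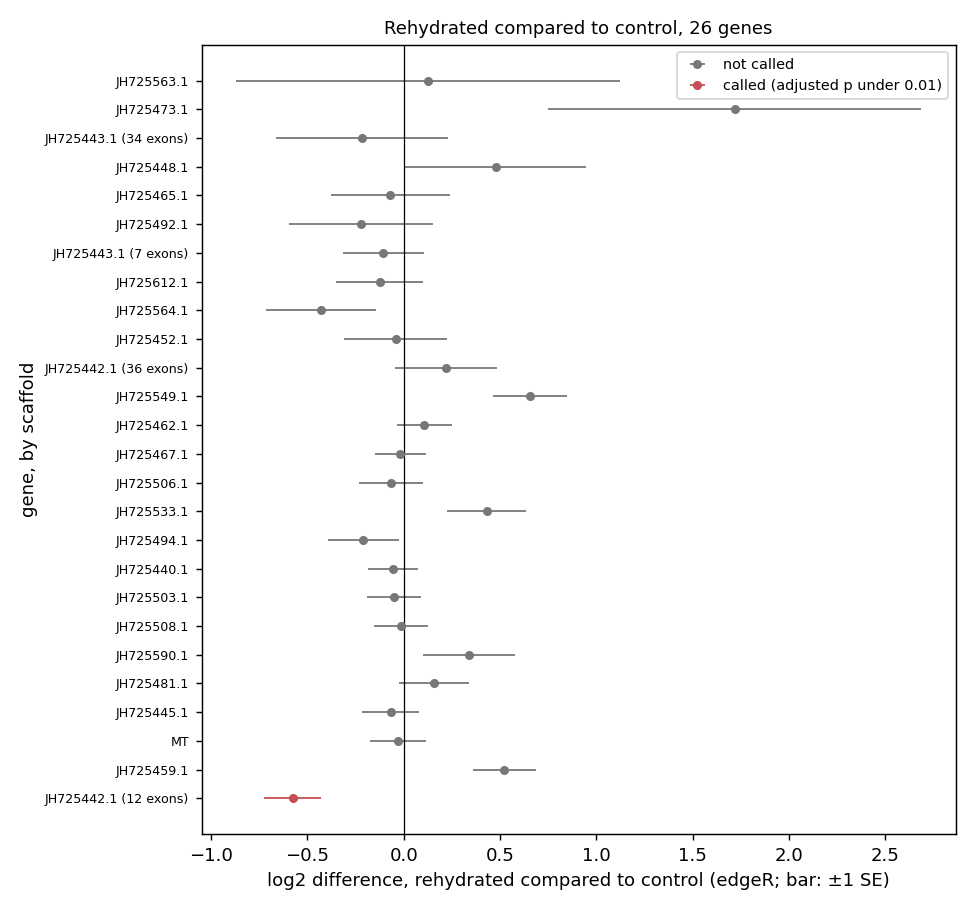
Log2 difference of rehydrated from control animals for each of the 26 genes (edgeR, 5 against 4 animals), in the order of the selecting ratio from top to bottom; points are fitted values and bars are ± 1 SE. The called gene, at -0.58, is at the bottom, and the 2 genes at the top have the widest bars (SE 0.996 and 0.969).

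The called gene, ENSJJAG00000014175 at JH725442.1:5533030-5637891 (plus strand, 12 exons), had a lower mean in rehydration than in control, though RHM07 lay above CM04. Its CPM was 13.3, 15.1, 9.48 and 15.4 in control, 7.08, 7.13, 6.00 and 7.27 in dehydration, and 8.40, 8.51, 8.53, 10.9 and 8.69 in rehydration. In rehydration it was lower than in control by a log2 difference of -0.58 (SE 0.15, edgeR adjusted p = 0.00713), and 4 of 5 rehydrated animals were under every control. The edgeR call against control was lost without CM01 and RHM01 (log2 difference -0.57, adjusted p = 0.0256) and with only the control and rehydrated animals (-0.60, adjusted p = 0.0154). With the gene length offset (-0.46, adjusted p = 0.0236) and with the animal number as a replicate block (-0.49, adjusted p = 0.0982) the call was lost too. It was also lost in 7 of the 13 fits that left out 1 animal, namely CM01, CM03, CM06, RHM01, RHM02, RHM04 or RHM08 (log2 difference -0.61 to -0.49, adjusted p = 0.0122 to 0.0281), and over all alternatives the adjusted p ran from 0.00151 to 0.0982.

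In the opposite direction, edgeR called no gene at an adjusted p under 0.01. The JH725549.1 gene had a log2 difference of 0.66 (SE 0.19, edgeR adjusted p = 0.0145) and the JH725459.1 gene one of 0.52 (SE 0.16, edgeR adjusted p = 0.0201). The difference of the former was 0.48 without CM03 (edgeR adjusted p = 0.046). Without CM04, edgeR called the former, at a log2 difference of 0.89 and an adjusted p of 0.00164. It called the latter without RHM01 (log2 difference 0.63, adjusted p 0.00379), without CM01 and RHM01 (0.73, adjusted p 0.00245) and with the gene length offset (0.58, adjusted p 0.00983). With a replicate block the difference of the latter was 0.29 (adjusted p 0.397). This gene measured 19.7, 14.1, 15.2 and 14.2 CPM in control, 14, 11.3, 13.2 and 9.28 CPM in dehydration, and 16, 21.85, 28.7, 24.4 and 23.3 CPM in rehydration. DESeq2 called 3 of the 26 in this comparison, where it called 36.4% of all genes: both of these and ENSJJAG00000014175. The JH725473.1 gene had the highest fitted difference, 1.72, with a standard error of 0.97 and an adjusted p of 0.169 in edgeR. Its mean count reached the minimum of the rule only through rehydration (47.2 counts, against 17.75 in control and 0.5 in dehydration), which favours a positive difference. This value depended on single animals: it was 1.08 without RHM08, 2.48 without CM01 and 2.81 without CM01 and RHM01, and with a replicate block it was 0.29, under that of the JH725549.1 gene (0.67). Over all alternatives its adjusted p ran from 0.0444 to 0.891.

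The animals did not contribute evenly to the pattern. RHM04 was the highest rehydrated animal in 12 of the 26 genes and the lowest in 0, against 16.4% and 17.9% of the 13828 genes that reached the count minimum. CM04 was the highest control in 11 genes and the lowest in 1, against 23.8% and 25.4%. CM03 was the lowest control in 13 genes, against 26.1%. The median coefficient of variation of the 26 genes was 23.2% in control, 15.4% in dehydration and 21.6% in rehydration, and over all such genes it was 13.4%, 12.5% and 17.2%. The rule itself favours genes with little spread in dehydration, so these values are a description.

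The 26 genes had a median of 5 exons, 1256 exon bases and a span of 10810 bases on the assembly. Over those 13828 genes the medians were 8 exons, 1349 exon bases and 18095 bases, and no test of these differences was made. The 26 genes had a median of 17.5 CPM against 22.8 CPM. Of the 26 genes, 3 had a single exon and 4 had 20 exons or more. No member had another member next to it. Of the 35 immediate neighbours averaging 8 counts or more, 4 had a dehydration mean at or under 0.77 times both other means, where 4.20% of all genes of that count did, and the median ratio of the neighbours was 1.10 against 1.19 over those genes. Those 4 were the neighbour on JH725448.1, a pair beside the member on JH725465.1, and a gene of 411 bases 4857 bases from the single-exon member at JH725590.1:2852752-2853138. The last of these had a ratio of 0.704, almost that of the member (0.705), but its dehydrated and rehydrated animals overlapped.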

How the data were processed

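Poly-A RNA of whole kidneys was sequenced, and 13 labelled animals were used here. The authors aligned the reads to JacJac1.0 and counted read pairs per gene with featureCounts 1.6.2 of Subread, without strand, per the file headers; the submitters' notes also name FastQC 0.11.5 and DESeq2 1.36.0. The deposited values are raw counts. Gene positions and exons come from the deposited table. The table holds 2 more animal columns, which could not be matched to a label and stayed out. The members and gene lists were chosen with earlier results of these data known.

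CPM was computed from the counts (numpy 2.4.6, pandas 2.3.3). The 15064 genes averaging 8 counts or more were fitted for all 3 groups at once with edgeR 4.0.16 (R 4.3.3, TMM scaling, quasi-likelihood test), p-values were adjusted by Benjamini-Hochberg over all of them, and an adjusted p under 0.01 was a call. Both the fit and the gene length offset were tested on simulated data, of which no result is given here. Alternatives were DESeq2 1.42.0, other filters, scalings and thresholds, a replicate block, a gene length offset and fits without single animals. Each animal is a replicate, and exact binomial intervals at 95% cover counting error only.

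Genes were to be named by the 12 lowest ratios, the 6 highest mean CPM, calls in rehydration compared to control, list membership, nearness to the limit (3 on each side) and neighbouring members. The rule asked for a symbol, which no member has, so that condition was dropped. Of 452 genes in 20 lists, 21 have an identifier in the sources used. None is a member, as the rule leaves out genes that the study names. The RefSeq table of the species (35105 rows, another assembly) pairs 0 of its rows with these identifiers, so no symbols and no sequences are given.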

Additional observations from a re-analysis of the deposited data

Results flagged for a closer look

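In 5 of 78 sets (26 genes in 3 groups), 1 animal lay far from the rest of its group in CPM by Dixon's criterion, which chance alone meets in about 1 of 20 sets. In rehydration, RHM04 was high at 50.54 CPM for the JH725508.1 gene, where the next animal had 39.44 CPM. RHM01 was high at 4.29 CPM for the JH725590.1 gene, with the next at 2.549 CPM. In control, CM01 was high at 22.08 CPM for the JH725445.1 gene, with the next at 14.77 CPM. The gene ENSJJAG00000014175 appeared in both of its treated groups: DHM05 was low at 5.996 CPM against 7.078 CPM for the next dehydrated animal, and RHM07 was high at 10.94 CPM against 8.688 CPM for the next rehydrated animal. CM01 and RHM01 are the animals with high immune-term genes, and the part of that in their values here was not tested.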

How the results depend on the processing

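All 26 genes also met the rule under TMM-scaled CPM and under DESeq2 size factors, which selected 36 and 40 genes. Without CM01 and RHM01 the rule selected 52 genes, 23 of them among the 26, and leaving out 1 animal at a time gave 27 to 61 genes, since fewer animals overlap less often; 21 of the 26 were selected in each of those 13 runs. For members called in dehydration compared to control (1), the count was 17 with DESeq2, 2 with a minimum mean of 20 counts, 16 at an adjusted p under 0.05, 0 without CM01 and RHM01 (edgeR, 26 at an unadjusted p under 0.05), and 0 to 4 with 1 animal left out. For rehydration compared to dehydration (10), it was 22 with DESeq2, 25 at an adjusted p under 0.05, and 3 to 10 with 1 animal left out. For rehydration compared to control (1), it was 3 with DESeq2, 3 at an adjusted p under 0.05, 0 with only control and rehydrated animals (edgeR, 3 at an unadjusted p under 0.05), and 0 to 2 with 1 animal left out. Without CM01 and RHM01 the gene called there was the JH725459.1 gene (log2 difference 0.73). Counts for both dehydration contrasts follow from the selection and are no evidence. The median log2 differences of the 26 genes moved by less than their median standard error in every fit run. The cause of the differences between edgeR and DESeq2 was not tested.

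With the animal number as a replicate block, edgeR called 0 of the 26 in each of the 3 comparisons; at an unadjusted p under 0.05 there were 16 for dehydration compared to control, 2 for rehydration compared to control and 17 for rehydration compared to dehydration. Same-numbered animals did not deviate together in all pairs (correlations of -0.0157 to 0.338 over 5 pairs). Their mean correlation was 0.119, against -0.0107 between animals of other numbers. The numbers were not taken to pair the animals, but these values do not settle whether they do. For ENSJJAG00000014175, rehydrated against control, the log2 difference was -0.49 with the block, -0.60 with only those 2 groups, -0.46 with the gene length offset and -0.57 without CM01 and RHM01, none of them called. At this depth, 3 counts were worth 0.131 to 0.213 CPM, which limits the genes with the lowest levels.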
